A study of Rattus norvegicus with 167 samples.

Results

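The genes described here encode the receptors for glutamate, GABA and glycine, the main fast transmitters of the spinal cord. They were taken from the array's annotation as the probe sets with 1 gene symbol that names an AMPA, kainate, NMDA or metabotropic glutamate receptor, a GABA-A or GABA-B receptor, or a glycine receptor. For each gene the probe set with the highest mean over all arrays was used. The annotation gave 45 such genes of 14218 named genes, and 29 of them passed the filter on low values (above the 40th percentile of the array in at least 3 arrays), which 12041 genes passed in all. The 16 genes that stayed below it and were not tested were Gabra3, Gabra4, Gabra6, Gabre, Gabrg3, Gabrp, Gabrq, Gabrr1, Gabrr3, Glra3, Grik3, Grin2a, Grin2d, Grm2, Grm6 and Grm7. Of the tested members, 6 were above that percentile on only 3 to 16 of the 167 arrays. They were Grin3a (3), Gabrr2 (4), Grin3b (5), Grm5 (11), Gria1 (14) and Grik1 (16). These passed only through the arrays where they were brightest, so their calls are not independent of the filter and rest on dim values.

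The tissue came from adult female Wistar rats whose spinal cord was cut completely at T7/8, with removal of 5 mm of cord. The gap was left empty (lesion control, LC), or bridged with a chitosan tube that was empty (ET) or loaded with the neurotrophin NT-3 (NT3). Cord just rostral (R) and just caudal (C) to the gap was collected on days 1, 3, 10, 20, 30, 60 and 90. The lesion site itself (M) was collected from day 3 on, and its ET arm, of day 3 alone, was not compared here. All injured groups share the transection and the removal of cord, and 3 uninjured cords served as the reference for every segment. The 167 arrays formed 55 groups of 3 and 1 group of 2 (rostral ET on day 10). The labels do not say that the arrays of a group came from separate rats, so the p-values speak only of the spread among these samples, which may be technical. The number of arrays limits the precision.

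Excitation in the cord runs through ionotropic glutamate receptors: AMPA receptors carry the fast current, kainate receptors act on both sides of the synapse, and NMDA receptors pass calcium once the membrane is depolarised. Inhibition runs through the chloride channels of the GABA-A and glycine receptors, while GABA-B and metabotropic glutamate receptors signal through G proteins. Below a transection, motor circuits lose descending input, and the balance of these receptors is one of the things studied in relation to spasticity and pain.

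Whole libraries were compared first. Array medians lay between 7.1 and 7.25 on the log2 scale, in which a difference of 1 is a 2-fold difference in signal. The uninjured cords stood apart in RNA quality: the difference between the 3-prime and 5-prime control probe sets of beta-actin was 1.72 ± 0.51 (SD, n = 3) there, and group means of the 55 injured groups ran from 0.76 to 1.5. The class I histocompatibility gene RT1-CE10 lay above 9 on every array of 17 groups, below 9 on every array of 35 groups, the uninjured cords among them, and on both sides of 9 in 4 groups. It split whole collection days of an arm, so it and the treatment cannot be told apart on those days. Values for days with RT1-CE10 on the same side of 9 in both groups (matched days) are given where such days exist. LC tissue of days 1 and 3 has none against uninjured cord. Counts of marker genes, and values relative to neuron markers, use all days of a comparison and are not given for matched days.

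Promoter sequences are shown for 4 GABA-A receptor genes because the results turn on how differently these genes moved: Gabrb2 and Gabra5 were among the most reduced members, and Gabrg1 was higher in the cord beside the gap. The 250 bases before the start of each gene were read from RefSeq (GRCr8), which held an entry for 33 members. Searched on both strands were GGGCGG (a GC box), TGACGTCA (the cyclic AMP response element), CAGCACC and GGACAGC (the left and right parts of the RE1 element bound by the neuronal repressor REST) and TATAAA. Matches were counted for each motif on its own, and these parts can overlap because both contain CAGC. GC boxes and RE1 parts are in capitals. The 4 stretches are chr14:37750042-37750291 on the plus strand for Gabrg1, chr14:36902894-36903143 on the minus strand for Gabrb1, chr10:27439543-27439792 on the plus strand for Gabrb2 and chr1:117516607-117516856 on the minus strand for Gabra5.
Gabrg1: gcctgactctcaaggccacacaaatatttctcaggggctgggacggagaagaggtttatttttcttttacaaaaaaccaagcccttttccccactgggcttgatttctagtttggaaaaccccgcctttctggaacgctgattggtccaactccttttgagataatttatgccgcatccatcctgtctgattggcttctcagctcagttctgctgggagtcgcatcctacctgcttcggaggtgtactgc
Gabrb1: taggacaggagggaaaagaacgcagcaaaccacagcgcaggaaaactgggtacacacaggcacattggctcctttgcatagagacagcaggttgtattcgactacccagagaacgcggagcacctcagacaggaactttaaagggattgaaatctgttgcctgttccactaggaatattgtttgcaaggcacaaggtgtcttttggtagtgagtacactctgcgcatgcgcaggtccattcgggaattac
Gabrb2: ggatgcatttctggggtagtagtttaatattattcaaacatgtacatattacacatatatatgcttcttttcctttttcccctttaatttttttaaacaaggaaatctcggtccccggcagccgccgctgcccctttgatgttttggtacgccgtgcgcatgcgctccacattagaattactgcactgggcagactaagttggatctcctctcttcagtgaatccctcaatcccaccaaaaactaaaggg
Gabra5: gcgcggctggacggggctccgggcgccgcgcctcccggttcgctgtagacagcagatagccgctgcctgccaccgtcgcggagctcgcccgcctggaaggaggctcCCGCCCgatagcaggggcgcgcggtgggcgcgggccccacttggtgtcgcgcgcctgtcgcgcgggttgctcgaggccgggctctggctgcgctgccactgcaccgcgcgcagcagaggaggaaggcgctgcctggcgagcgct
Only the Gabra5 stretch of these 4 held one of the motifs, a single GC box that reads CCGCCC on the strand shown. Over all 33 members a GC box was present in 14 (42.4%), against 30.5% of 33469 promoters of this length. The right RE1 part was present in 3 members (9.09%, against 5.30%), the left part in 1 (against 5.43% of all), TATAAA in 3 (9.09%, against 12.9%), and the cyclic AMP response element in 0 (against 1.59%). Of the 20 tested members with an entry, 7 held a GC box, 1 the right RE1 part and 0 the left part. TATAAA was present in 2 of these 20 and the cyclic AMP response element in 0. The median GC content of the members' stretches was 57.6%, against 51.2% of all. In the RefSeq gene order, Gabrg1 lies next to Gabra2, Gabrb1 next to Gabra4, Gabra5 next to Gabrg3, and Gabrb2 next to Gabra6. Gria2 and Glrb are also neighbours.

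In cord next to the gap without a tube, most receptor genes were already lower in the first days. Rostral to the gap, 24 of the 29 tested members were lower than in uninjured cord on days 1 and 3, and 0 were higher (limma, adjusted p under 0.05 over all 12041 genes). Of all tested genes, 31.8% were called lower in that comparison. The median difference of the members was -0.92, and that of all tested genes was 0.03. Caudal to the gap, 24 members were lower and 0 higher (30.7% of all genes lower), with a median of -0.77. All 24 members called rostrally had all 6 LC arrays below the 3 uninjured arrays, as did 21 of the 24 called caudally. Of all tested genes, 23.6% did so rostrally and 24.4% caudally. RT1-CE10 lay above 9 on all LC arrays of day 1 on both sides of the gap, on both sides of 9 on day 3, and below 9 in uninjured cord. That split and the injury thus cannot be told apart in these early windows.

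The inhibitory receptor genes held several of the strongest early falls. Gabrb2, a beta subunit of the GABA-A receptor, measured 9.87, 9.39 and 9.69 in the uninjured cords. In the 6 rostral LC arrays of days 1 and 3 it ran from 7.34 to 8.33, with a median of 7.75. The groups did not overlap, and Gabrb2 was 3.64-fold lower (-1.86, SE 0.18, limma adjusted p = 4.9e-13). Gabra2, an alpha subunit common at synapses, measured 8.84, 8.45 and 8.46 in uninjured cord and 6.22 to 7.27 (median 6.93) in the rostral LC arrays. It was 3.19-fold lower (-1.68, SE 0.17, adjusted p = 8.0e-12), again with no overlap. Gabra5, an alpha subunit of extrasynaptic receptors, was 3.24-fold lower (-1.69), and Gabbr2, the subunit that couples the GABA-B receptor to its G protein, was 3.08-fold lower (-1.62). Its partner Gabbr1, which binds GABA, was 0.58 lower. Of the glycine receptor genes, Glra2 (-1.49) and Glrb (-1.23), which encodes the beta subunit that anchors the receptor to gephyrin, fell, and Glra1, the main adult alpha subunit, differed by -0.16 without passing the test.

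All 4 AMPA receptor genes fell on these days. Gria3 measured 10.53, 10.20 and 10.17 in uninjured cord and 8.36 to 9.17 (median 8.75) in the rostral LC arrays. All 6 LC arrays were thus below the lowest uninjured array, and Gria3 was 2.95-fold lower (-1.56, SE 0.12, limma adjusted p = 1.4e-15). Gria2, the subunit that makes AMPA receptors impermeable to calcium, fell by 1.36, Gria4 by 1.35 and Gria1 by 0.89. Among NMDA receptor genes, Grin1, the subunit every NMDA receptor needs, ran from 7.84 to 8.43 against 8.89 to 9.76 in uninjured cord, a 2.19-fold difference (-1.13). Grin2b differed by 0.03 and did not pass the test. The largest fall of a metabotropic receptor was that of Grm3, which is found in neurons and astrocytes: 7.01 to 8.30 (median 7.69) against 9.43, 9.60 and 9.44, or 3.53-fold lower (-1.82, SE 0.14, adjusted p = 2.3e-15). Grm5, a group I receptor, fell by 0.92.

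Most of these genes were closer to uninjured cord at the end. Rostrally, 24 members were lower and 1 higher on days 10 to 30 (all genes, 31.3% lower and 29.1% higher), and 21 were lower and 1 higher on days 60 and 90 (28.7% and 24.9%). Caudally the counts were 25 lower and 1 higher on days 10 to 30 (32.5% and 29.2%), and 17 lower and 1 higher on days 60 and 90 (31.5% and 25.2%). Of the 24 members that were lower rostrally on days 1 and 3, 23 lay nearer to uninjured cord on days 60 and 90, all but Grin3b. Caudally 19 of 24 did so. Of all genes that were lower on days 1 and 3, 80.6% lay nearer on days 60 and 90 rostrally and 66.2% caudally. On matched days alone, 24 members were lower and 1 higher rostrally on days 10 and 20 (all genes, 31.9% lower and 27.9% higher), and 19 were lower and 0 higher on day 60 (23.9% and 22.1%). Caudally 25 were lower and 1 higher on days 10 and 20 (32% and 28.9%), and 19 were lower and 1 higher on day 60 (29.2% and 21.6%). The median member difference went from -0.92 through -0.69 to -0.50 rostrally and from -0.77 through -0.74 to -0.55 caudally.

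On days 60 and 90 some inhibitory subunits were still called lower and others were not. Genes were not tested against each other. Gabra2 was no longer distinguishable from uninjured cord rostrally on days 60 and 90: its 6 arrays ran from 8.11 to 8.47 and overlapped the uninjured range (-0.31, not called). Gabrb2 ran from 8.01 to 8.32 and stayed 2.71-fold lower (-1.44, SE 0.18, limma adjusted p = 1.7e-09), with no overlap. It thus remained below every uninjured array while Gabra2 did not, in the same tissue. The other members that were lower early but not late on the rostral side were Gabbr1, Grin2c, Grin3a and Grm5. Caudally they were Gabra2, Gabrb1, Gabrr2, Grik1, Grin2c, Grin3a and Grm5. In all, 17 members were lower in all 6 windows of both sides: the 4 AMPA genes, Grik2, Grik4, Grik5, Grin1, Grin3b, Grm3, Grm4, Grm8, Gabra5, Gabrb2, Gabbr2, Glra2 and Glrb. Among them Grin3b was above the 40th percentile on only 5 of all arrays and Gria1 on 14, so their calls rest on dim values. Without uninjured replicate 2 the Grm4 call was lost rostrally on days 60 and 90 (-0.34, limma adjusted p = 0.075) and caudally on days 1 and 3 (-0.43, adjusted p = 0.062) and days 60 and 90 (-0.47, adjusted p = 0.050). Caudally on days 60 and 90 the call of Grin3b was lost without the same array (-0.24, adjusted p = 0.090) and that of Gria2 without uninjured replicate 1 (-0.55, adjusted p = 0.052). With the beta-actin covariate Grin1 was -0.59, Gabbr2 -0.71 and Grik5 -0.37 caudally on days 60 and 90, and the calls of Grik4 there (-0.30, adjusted p = 0.087), of Grm8 there (-0.23, adjusted p = 0.073), of Grin3b there (-0.25, adjusted p = 0.17) and of Grik5 caudally on days 1 and 3 (-0.20, adjusted p = 0.21) were lost. With that covariate the Grm4 call was lost rostrally on days 60 and 90 (-0.33, limma adjusted p = 0.099) and in all 3 caudal windows (-0.47, -0.52 and -0.50, adjusted p = 0.088, 0.064 and 0.10). Late falls on the caudal side included Gabrb2 (-1.55), Gabbr2 (-1.18), Grm3 (-1.13), Grin1 (-1.04), Glra2 (-1.03) and Gabra5 (-1.02).

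**Figure D1:**
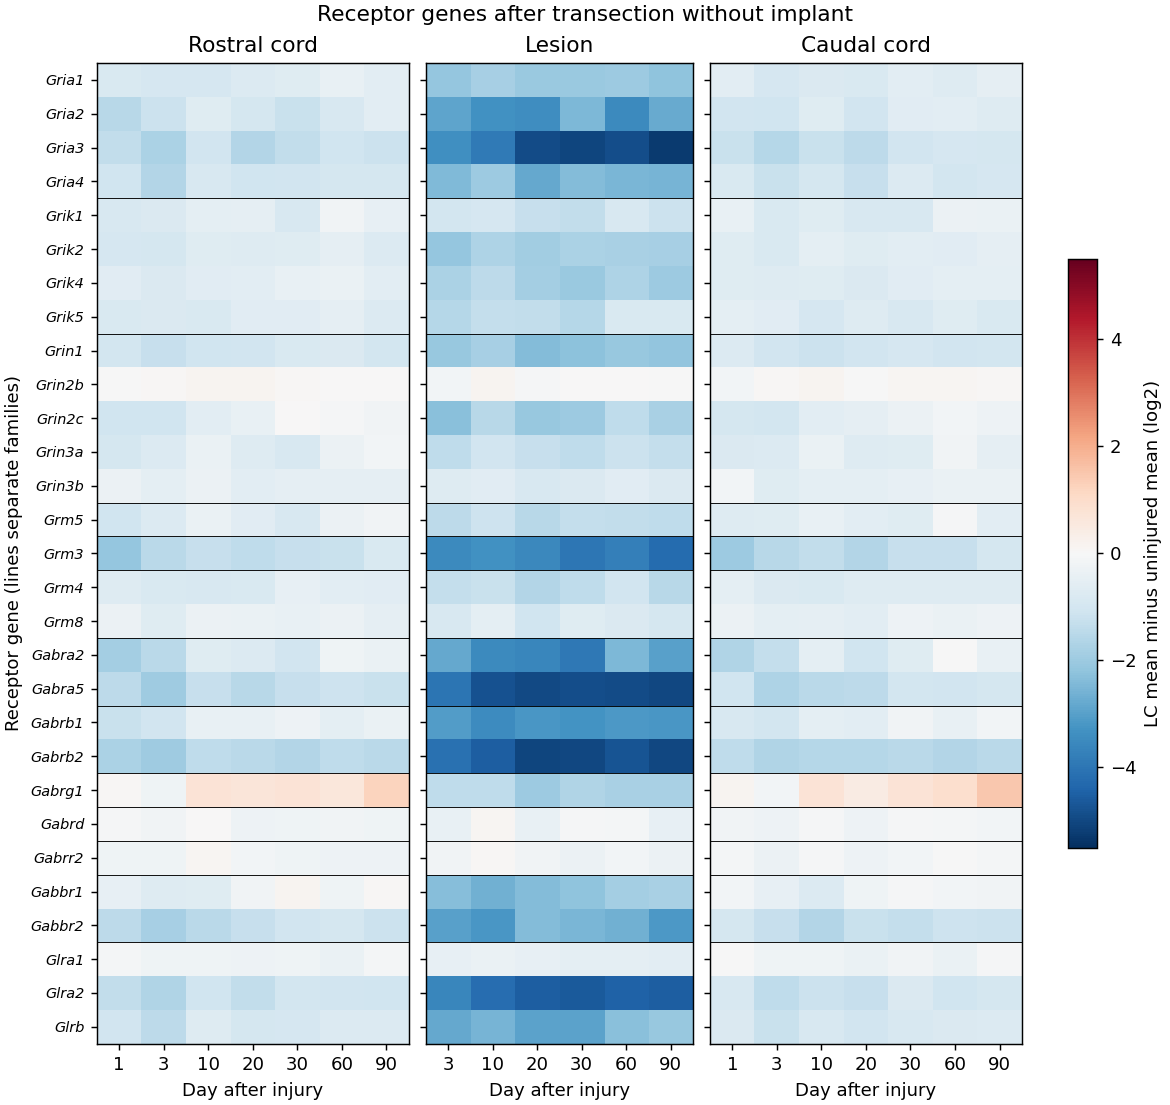
Difference of each tested receptor gene (29 rows, by family) from uninjured cord in LC tissue, as the log2 difference of group means (colour), for each segment and day (columns). The lesion columns are the deepest, as in the late lesion difference of -5.07 for Gria3, and Gabrg1 stands out with positive values beside the gap.

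Gabrg1, a gamma subunit of the GABA-A receptor, was the exception among the members. In the uninjured cords it measured 8.04, 6.80 and 7.98. On day 1 it measured 7.99, 7.98 and 7.08 rostrally and 7.65, 8.16 and 7.51 caudally, within the uninjured range or just above it. On day 90 it measured 8.90, 8.96 and 8.58 rostrally and 9.13, 9.29 and 8.88 caudally, above every uninjured array. Over days 60 and 90 the difference was 0.93 rostrally and 1.2 caudally, and the arrays of both days together overlapped the uninjured ones on the caudal side but not on the rostral side. The call rests in part on 1 uninjured array: without uninjured replicate 2 the difference was 0.52 rostrally (adjusted p = 0.12) and 0.80 caudally (adjusted p = 0.0094). With the beta-actin difference as a covariate it was 0.09 (adjusted p = 0.76) and 0.01 (adjusted p = 0.98). On day 60, when RT1-CE10 lay below 9 in LC and uninjured cord alike, it was 0.64 rostrally (adjusted p = 0.073) and 0.91 caudally (adjusted p = 0.0059). Its genomic neighbour Gabra2 was not called on either side in that window.

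**Figure D2:**
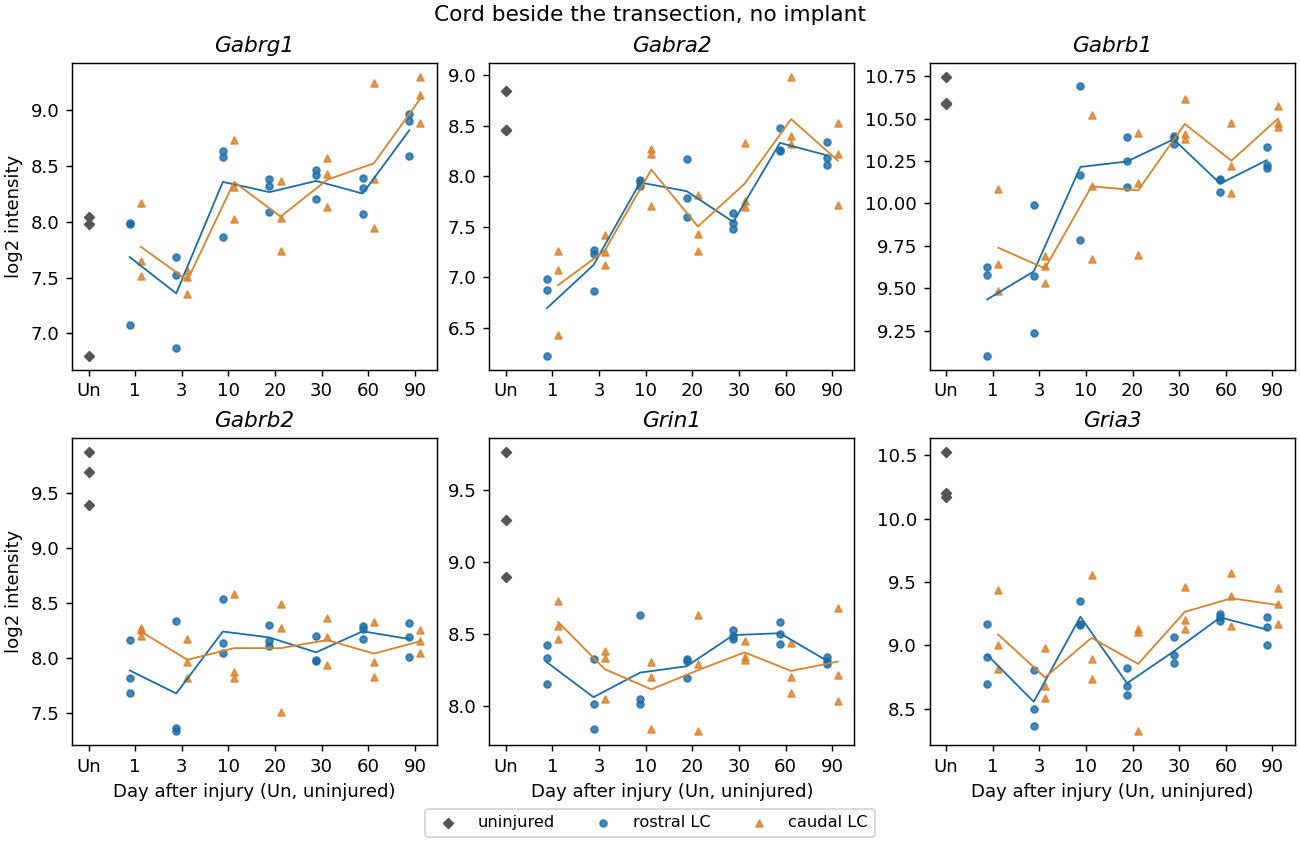
Log2 level of 6 receptor genes on every array of uninjured cord and of LC cord rostral and caudal to the gap, by day (1 point per array). Gabrg1 reaches 8.58 to 8.96 rostrally on day 90, Gabra2 returns to 8.11 to 8.47 on days 60 and 90, and Gabrb2 stays at 8.01 to 8.32 below the uninjured cords.

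No member was called between the rostral and caudal sides: 0 of 29 passed between rostral and caudal LC over the 7 days by limma, beside 0.507% of all genes. By the same test 4 had an unadjusted p under 0.05 (Gabra5, Gria2, Gria3 and Grik2). The arrays of the 2 sides were treated as independent, and a paired fit was not run. Levels differed between days for 21 members rostrally and 15 caudally, close to or below the share of all genes called (72.5% and 73.3%). At the lesion site 11 members differed between days, against 70.6% of all genes. In a bulk sample, fewer cells of a type and less RNA per cell cannot be told apart. The neuron marker list moved with the receptors: its mean level was 12.18 in uninjured cord and 10.97 to 11.51 over the 7 days of rostral LC and 11.14 to 11.71 of caudal LC, and 17 of its 18 tested genes were lower rostrally on days 60 and 90. In that comparison all 10 microglia and macrophage markers and all 7 fibroblast markers were higher. The part of these shifts in the receptor differences was not tested.

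To describe the receptors against the neuron markers, each array's mean over the neuron list was subtracted and the same fit was run. The neuron list was itself lower in LC tissue, so the subtraction raised all genes. The median difference of all tested genes became 0.68 rostrally, 0.76 caudally and 3.57 at the lesion site. That of the members became 0.21, 0.25 and 1.67. The shares of all genes in this paragraph follow from that shift and are no yardstick for the members. On that scale 5 members were still lower rostrally on days 60 and 90 (all genes, 1.83% lower): Gabrb2 (-0.73), Gabra5 (-0.47), Gria3 (-0.42), Glra2 (-0.37) and Gabbr2 (-0.36). A further 11 were higher, where 83.6% of all genes were. Caudally 4 were lower (2.07% of all genes): Gabrb2 (-0.75), Gabbr2 (-0.38), Grm3 (-0.33) and Grin1 (-0.24), and 14 were higher (85.4%). At the lesion site 4 were lower (0.581%): Gria3 (-1.57), Gabra5 (-1.45), Gabrb2 (-1.37) and Glra2 (-0.98), and 20 were higher (96.4%). With the mean of all probe sets of a gene in place of its brightest one, Gabrb2 was -0.10 rostrally (limma adjusted p = 0.35) and -0.02 caudally (adjusted p = 0.89), and at the lesion site it turned to 0.89 and Glra2 to 0.86. Likewise Gabbr2 turned to 0.15 rostrally and 0.17 caudally, and Glra2 to 0.21 rostrally. Gria3 lost its calls under the same mean, at -0.30 rostrally (limma adjusted p = 0.061) and -0.52 at the lesion site (adjusted p = 0.17). With the beta-actin covariate Grin1 turned to 0.03 caudally. Without uninjured replicate 1 the rostral calls of Gria3 (-0.26, limma adjusted p = 0.14) and Gabra5 (-0.39, adjusted p = 0.056) were lost. Without uninjured replicate 2 those of Gabbr2 rostrally (-0.25, adjusted p = 0.071) and of Gabbr2 (-0.27, adjusted p = 0.13), Grm3 (-0.31, adjusted p = 0.071) and Grin1 (-0.05, adjusted p = 0.71) caudally were lost. Without LC day 60 replicate 1 the lesion call of Glra2 was lost (-0.79, adjusted p = 0.064).

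At the lesion site the falls were much deeper and lasted. On day 3, 27 members were lower than in uninjured cord (33.5% of all genes lower). On days 10 to 30 the count was 26 (37.1%), and on days 60 and 90 it was 27 (35%), with 0 members higher in any of the 3 windows. The median member differences were -2.12, -1.87 and -1.83, against 0.08, 0.07 and 0.06 for all genes. Compared directly with the neighbouring LC cord over days 3 to 90, 26 members were lower in the lesion (38% of all genes lower), with a median of -1.33. Only Grin2b and Gabrr2 were not called lower on days 60 and 90.

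The AMPA subunit Gria3 measured 5.32, 6.0 and 4.89 at the lesion site on day 60 and 4.93, 4.73 and 5.49 on day 90, against 10.17 to 10.53 in uninjured cord. The gap between the groups was wider than either group, and Gria3 was 33.7-fold lower (-5.07, SE 0.26, limma adjusted p = 1.2e-17). Gabra5 ran from 5.01 to 5.66 against 10.28, 10.28 and 10.08 and was 31.0-fold lower (-4.96, SE 0.22, adjusted p = 3.3e-19). Gabrb2 ran from 4.29 to 5.36 and was 29.4-fold lower (-4.88). Glra2, an alpha subunit of the glycine receptor prominent in development, ran from 3.15 to 4.2 against 8.02, 8.13 and 8.01 and was 22.3-fold lower (-4.48). The lowest levels are below the 40th percentile of the arrays (6.49 to 6.60), so these folds are differences between a clear signal and one in the range of dim probe sets. Grm3 was 15.8-fold lower, Gabrb1 9.08-fold, Gria2 8.79-fold, Gabbr2 7.47-fold and Gabra2 6.68-fold. Smaller falls were those of Grin1 (-2.12), Gria1 (-2.12), Gabbr1 (-1.83) and Glra1 (-0.55), and Grin2b differed by -0.01.

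Gabrg1, which was higher beside the gap, was lower within it (-1.78 on days 60 and 90). The neuron list fell to 7.93 to 9.39 over the days of lesion LC tissue, and 18 of its 18 tested genes were lower on days 60 and 90. At the same time 8 of 9 myelin markers were lower, and all 7 fibroblast and all 4 Schwann cell markers were higher. The part of these lists in the receptor values was not tested. On the days when RT1-CE10 lay below 9 in LC and uninjured cord (day 10, and day 60), 26 and 26 members were lower at the lesion site, beside 37.8% and 34% of all genes.

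The NT3 tube was compared with the untreated gap in the lesion. Over days 3 to 90, 9 members were higher with NT3 and 0 lower (19% of all genes higher): Gria3, Grik1, Grik2, Grm3, Gabra2, Gabra5, Gabrb1, Gabrb2 and Gabbr1. On days 60 and 90, 12 were higher and 0 lower (14.9% of all genes higher), with a median member difference of 0.33 against -0.06 for all genes. Of the 9 members, 8 were also among the 12, all but Gabbr1. Both comparisons use the arrays of days 60 and 90, so this overlap is partly built in. The GABA-A subunits made up 5 of the 12 (Gabra2, Gabra5, Gabrb1, Gabrb2 and Gabrg1), or 5 of the 6 tested alpha, beta, gamma and delta subunits with Gabrd as the exception. The others were Gria3, Grik1, Grik2, Grin3a, Grm3, Gabbr2 and Glra2. Grin3a was above the 40th percentile on only 3 of all arrays.

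With NT3, Gria3 measured 6.35, 6.26 and 6.64 on day 60 and 7.01, 6.93 and 7.0 on day 90. Every NT3 array was above every LC array of these days, and the difference was 2.77-fold (1.47, SE 0.21, limma adjusted p = 5.5e-06). All LC arrays of Gria3, and 2 of its 3 NT3 arrays of day 60, lay below the 40th percentile, and its second brightest probe set differed by 0.36, not called. Gabrb1 measured 8.56, 8.28 and 8.56 and then 8.96, 9.07 and 9.10 with NT3, against 7.37, 7.95 and 7.12 and then 7.18, 7.13 and 8.0 with LC. The arms did not overlap, and NT3 was 2.45-fold higher (1.30, SE 0.24, adjusted p = 9.1e-05). Gabrb2 measured 5.99, 6.17 and 5.67 and then 6.15, 6.06 and 6.14 with NT3, against 5.07, 5.36 and 4.34 and then 4.72, 4.29 and 4.86 with LC. It was 2.39-fold higher (1.26, SE 0.28, adjusted p = 0.00078), without overlap, though every value lay below the 40th percentile of the arrays.

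Gabra2 measured 7.07, 7.32 and 6.21 and then 7.56, 7.07 and 7.47 with NT3, against 6.57, 6.68 and 5.08 and then 5.57, 5.47 and 5.70 with LC. It was 2.42-fold higher (1.27, SE 0.29, limma adjusted p = 0.0011), but 1 NT3 array of day 60 fell among the LC arrays. Grik1, a kainate receptor subunit that sensory neurons also express, measured 7.02, 7.50 and 5.74 and then 7.36, 6.24 and 6.98 with NT3, against 5.79, 6.29 and 5.48 and then 5.57, 5.44 and 5.61 with LC. It was 2.16-fold higher (1.11, SE 0.22, adjusted p = 0.00029) with overlapping arms, and it was the 1 member that was lower with LC but not with NT3 when each was set against uninjured cord, apart from Gabrd. All these LC values of Grik1 lay below the 40th percentile. Grik1 was above it on 16 of all arrays, NT3 arrays of these days among them, so this difference is not independent of the filter. Its NT3 mean differed from uninjured cord (6.74, 6.89 and 6.52) by 0.09. Grm3 was 2.11-fold higher (1.08, adjusted p = 2.5e-05) and Gabrg1 1.89-fold (0.92, adjusted p = 0.00057). Glra2 was 0.71 higher (adjusted p = 0.023), a call that was lost without any 1 of 3 single arrays. Without NT3 day 90 replicate 2, LC day 60 replicate 1 or LC day 90 replicate 2 it was 0.60 to 0.65.

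Members with NT3 still lay far below uninjured cord: 25 of 29 were lower on days 60 and 90 (36.5% of all genes lower), with a median of -1.46. Gria3 was 12.1-fold lower (-3.60), and on the log2 scale Gabra5 differed by -4.09, Gabrb2 by -3.62, Gabrb1 by -1.89 and Gabra2 by -1.46. Genes with no call between NT3 and LC included Grin1 (0.12), Gria1 (0.32), Gria2 (0.46), Gria4 (0.25), Glrb (0.31), Glra1 (-0.13), Grm5 (0.33) and Grin2b (-0.03).

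**Figure D3:**
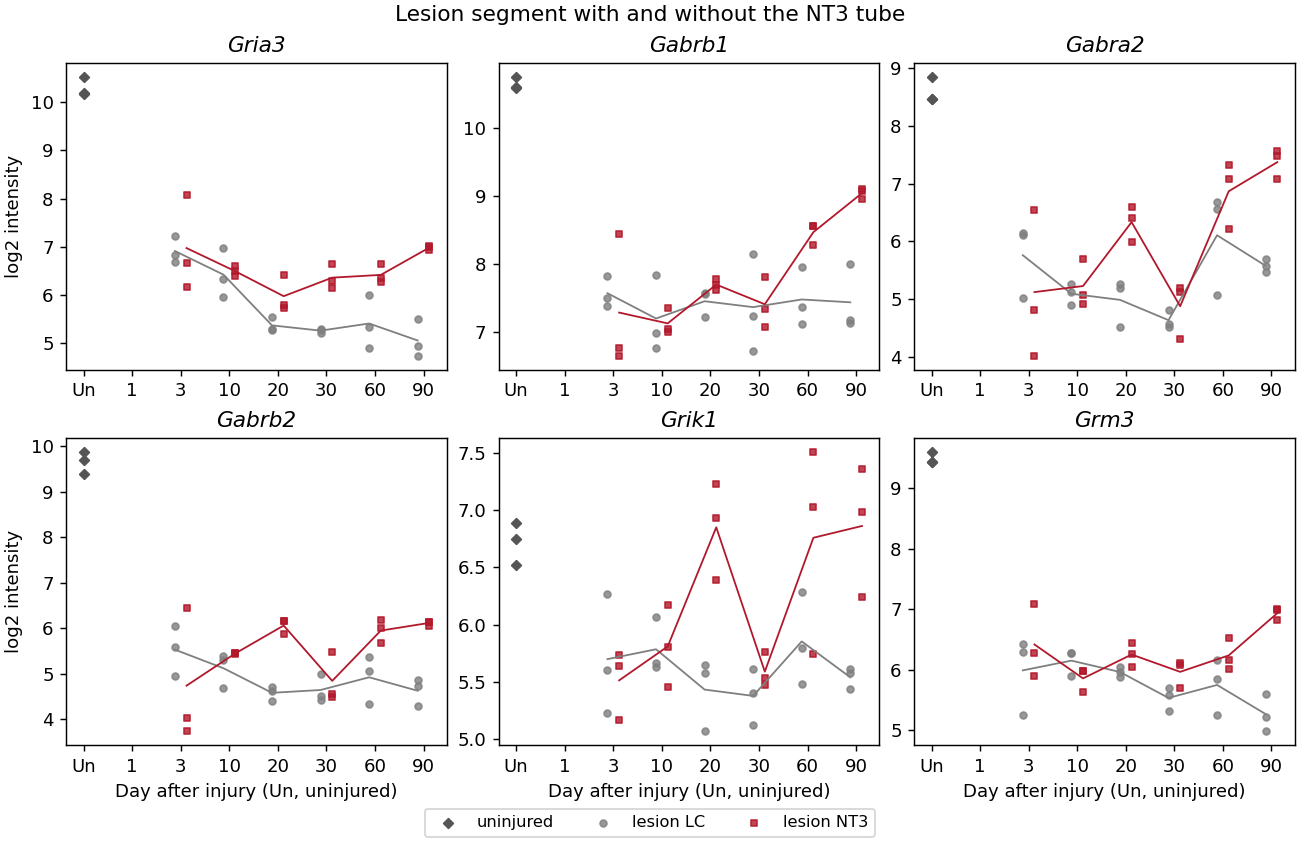
Log2 level of 6 receptor genes on every array of the lesion site, by day, for LC and NT3, with the uninjured cords (1 point per array). On day 90 the NT3 arrays of Gria3 (6.93 to 7.01) lie above the LC arrays (4.73 to 5.49) and below the uninjured cords.

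The 2 late days did not carry equal weight. On day 60 RT1-CE10 lay below 9 in both arms, while on day 90 it lay above 9 on every LC array and below 9 on every NT3 array, so on day 90 that split and the treatment cannot be told apart. On day 60 alone 4 members were higher with NT3, beside 10.4% of all genes: Gria3 (1.01, limma adjusted p = 0.016), Gabrb1 (0.99, adjusted p = 0.030), Grik1 (0.90, adjusted p = 0.036) and Gabrg1 (0.87, adjusted p = 0.023). The other 8 had differences from 0.10 (Grin3a) to 1.03 (Gabrb2, adjusted p = 0.055). Over the 3 matched days (10, 30 and 60), Gria3 (0.73) and Grik2 (0.36) were higher and Grm8 was lower (-0.23), beside 15.6% of all genes higher and 14.8% lower.

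Markers of other cells moved with the NT3 arm. On days 60 and 90, 16 of 18 neuron markers, 6 of 10 astrocyte markers and 8 of 9 myelin markers were higher with NT3 at the lesion site. All 6 tested markers of dorsal root ganglion neurons were higher as well, as were 8 of 9 skeletal muscle markers. The mean level of the neuron list was 9.92 on day 60 and 10.52 on day 90 with NT3, against 8.78 and 8.57 with LC. The dorsal root ganglion list stood at 9.37 and 9.40 with NT3, against 7.78 and 7.59 with LC and 7.60 in uninjured cord, so it lay above uninjured cord as well. The muscle list stood at 9.18 and 8.65, against 6.85 and 6.48. The part of these cells in the receptor differences was not tested.

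The NT3 difference at the lesion site changed with the day for 13 members, a share below that of all genes called (limma moderated F-test, 50.6%). For Gria3 the difference from LC was 0.06 on day 3, 0.07 on day 10, 0.61 on day 20, 1.10 on day 30, 1.01 on day 60 and 1.93 on day 90 (adjusted p = 0.0043). For Gabrb2 it was -0.79, 0.32, 1.48, 0.20, 1.03 and 1.49 on the same days (adjusted p = 0.0069). For Gabra2 it was -0.64, 0.13, 1.34, 0.24, 0.76 and 1.79 (adjusted p = 0.011). Gabrb2 and Gabra2 were thus further above LC on days 20, 60 and 90 than on day 30, while Gria3 was at least 1.01 higher from day 30 on. Only days 10, 30 and 60 are matched days here. On day 20 RT1-CE10 ran from 8.44 to 11.26 with LC and lay below 9 with NT3. On days 3, 20 and 90 that split and the treatment cannot be told apart. In 1 fit of all arrays 20 members changed with the day. The neuron list had the same days high: it stood at 10.29 on day 20 and 8.80 on day 30 with NT3, against 7.93 and 8.08 with LC.

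Rostral to the gap, the 3 arms were all sampled on each day. Averaged over the days, 19 members were higher with NT3 than with ET and 0 lower (17.4% of all genes higher), with a median of 0.22. The differences were small: Gabbr2 0.39 (1.31-fold, limma adjusted p = 1.6e-05), Grm5 0.38 (1.30-fold, adjusted p = 3.5e-05), Gabrb2 0.35, Grm3 0.34, Gria3 0.34 (adjusted p = 7.7e-06), Gria1 0.33 and Gabra5 0.33. ET was in turn below LC for 14 members (14.9% of all genes lower), among them Gabbr2 (-0.27), Gabra5 (-0.26), Gabrb2 (-0.26), Gria3 (-0.24), Glra2 (-0.22), Gria1 (-0.21) and Grin1 (-0.21). Both comparisons use the same ET arrays. By day, ET lay above LC for 28 of 29 members on day 1 (median 0.20) and for 19 on day 3 (0.07), and the median was below 0 from day 10 on, at -0.14 to -0.46. NT3 against LC directly gave 3 members higher (1.15% of all genes): Gabra2 (0.30, adjusted p = 0.022), Grm5 (0.29, adjusted p = 0.012) and Grik2 (0.20, adjusted p = 0.024), and the last call was lost without LC day 1 replicate 3. The arms overlapped for every member in all 3 comparisons over all days, as they did for all tested genes (0% apart in either direction). On matched days 12 members were higher with NT3 than with ET (9.97% of all genes higher), and 2 were lower with ET than with LC (Gabbr2 and Grin3b, with 1.6% of all genes lower). Between NT3 and LC 0 were called on those days by limma (0.324% of all genes higher and 0.158% lower), with 10 at an unadjusted p under 0.05. All 18 neuron markers were higher and all 7 fibroblast markers lower with NT3 than with ET, and their part in the receptor differences was not tested.

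The rostral NT3 difference from LC changed with the day for 14 members (28.2% of all genes). In 1 fit of all arrays the count was 7, and without rostral NT3 day 1 replicate 2 it was 9. The median difference was largest on day 1, at 0.38, when 28 of the 29 members lay above LC. ET also lay above LC on that day for 28 members (median 0.20), and NT3 lay above ET for 22 (median 0.11). On that day Gabbr2 measured 9.95, 9.50 and 9.77 with NT3, 9.07, 9.09 and 9.05 with ET and 9.05, 8.73 and 8.73 with LC. All NT3 arrays were above all arrays of the other arms and below the uninjured 10.04 to 10.56. Its difference from LC then went from 0.91 on day 1 through 0.59, 0.06, 0.14, -0.28 and -0.43 to -0.17 on day 90 (limma adjusted p = 0.00038 for a change with the day). Gabrb2 measured 9.0, 9.13 and 8.77 with NT3 on day 1 and 8.16, 7.69 and 7.82 with LC, and its difference went from 1.08 through 0.34, -0.22, 0.14, -0.34 and -0.39 to -0.01 (adjusted p = 0.0016). Gria3 went from 0.64 through 0.45, -0.41, 0.21, -0.24 and -0.31 to 0.33 (adjusted p = 0.00023). Day 1 is not a matched day for these arms, so the RT1-CE10 split and the treatment cannot be told apart there.

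**Figure D4:**
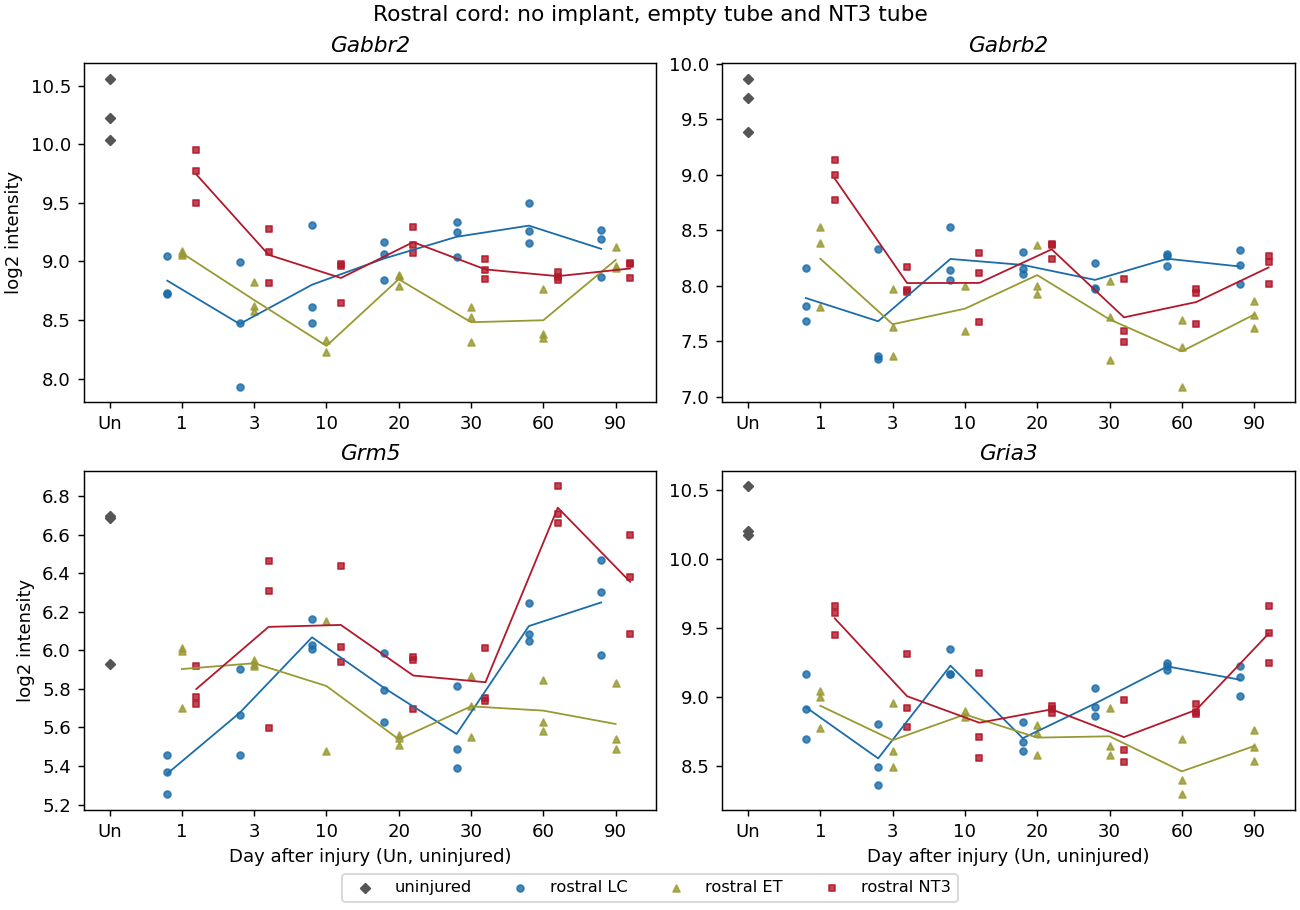
Log2 level of Gabbr2, Gabrb2, Grm5 and Gria3 on every rostral array by day, for LC, ET and NT3, with the uninjured cords (1 point per array). On day 1 the NT3 arrays of Gabbr2 (9.50 to 9.95) lie above those of ET (9.05 to 9.09) and LC (8.73 to 9.05), and the arms overlap on later days.

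Caudal to the gap, treatment differences were fewer. Over the days 3 members were higher with NT3 than with LC (5.91% of all genes higher): Grm3 (0.29, limma adjusted p = 0.0085), Grik5 (0.18, adjusted p = 0.028) and Grik2 (0.17, adjusted p = 0.034). Without caudal LC day 20 replicate 2 the calls of Grik5 (adjusted p = 0.064) and Grik2 (adjusted p = 0.078) were lost. Between NT3 and ET 0 members were called by limma (8.38% of all genes), with 3 at an unadjusted p under 0.05 (Gabbr2, Grik2 and Grik5). Between ET and LC 0 were called (3.5% of all genes), with 2 at an unadjusted p under 0.05 (Gabrb1 and Grm3). On matched days 0 members were called between NT3 and LC by limma (1.26% of all genes higher and 0.698% lower), with 7 at an unadjusted p under 0.05. On such days 1 was higher with NT3 than with ET (Grm8, 0.13, with 3.75% of all genes higher) and 2 were higher with ET than with LC (Grm3, 0.37, and Glrb, 0.22, with 8.2%). A change of the NT3 difference with the day was called for 1 member, Gria2 (7.18% of all genes), whose difference went from 0.59 through -0.38, 0.26, 0.51, -0.68 and 0.05 to 0.47 (adjusted p = 0.044). That call was lost with the mean of probe sets (adjusted p = 0.097) and in 1 fit of all arrays (adjusted p = 0.091), and leaving out 1 array at a time gave 0 to 4 members. No member's NT3 difference was called as unequal between the rostral and caudal sides (0 by limma, 0.108% of all genes), with 1 at an unadjusted p under 0.05 (Grik5).

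Several genes had more than 1 probe set, and these did not always move together. When every probe set was tested in its own right, as a check added after seeing the data, Gabbr1 gave opposite calls rostrally on days 60 and 90: the second brightest probe set was lower (-0.76) and the fourth brightest higher (0.76), while the brightest, used here, differed by -0.10. The fourth brightest ran from 6.80 to 7.98 in uninjured cord, and without uninjured replicate 2 its difference was 0.39 (limma adjusted p = 0.33), so that call rests on 1 array. Glrb was -0.75 for the one used here and 0.27, not called, for the second brightest. For Gria4, at the lesion site with NT3 against LC on days 60 and 90, the second brightest probe set was 1.34 higher (limma adjusted p = 2.1e-05), and the one used here was 0.25, not called. For Gria2 the second was 1.00 higher (adjusted p = 0.023), against 0.46. For Gria3 the second was 0.36, not called, against 1.47. A second probe set of Grin2a, whose brightest one was below the filter, was 1.36 lower rostrally on days 1 and 3. The second probe sets of Gabrb2 and Glra2 were above the 40th percentile on 0 arrays and that of Gabbr2 on 2. Those of Glra1 and Grin2b were also above it on 0 arrays and were not tested. The Glra1 one differed by -0.56 rostrally on days 1 and 3 and by -1.05 at the lesion on days 60 and 90. The Grin2b one differed by -0.23 and -0.32. With the mean of all probe sets of a gene, Gabrb2 was -1.03 rostrally on days 1 and 3 and -2.47 at the lesion on days 60 and 90, Gabbr2 was -0.89 and -1.36, and Glra2 was -0.79 and -2.50. Glrb was -0.18 (adjusted p = 0.26) rostrally on days 60 and 90.

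**Figure D5:**
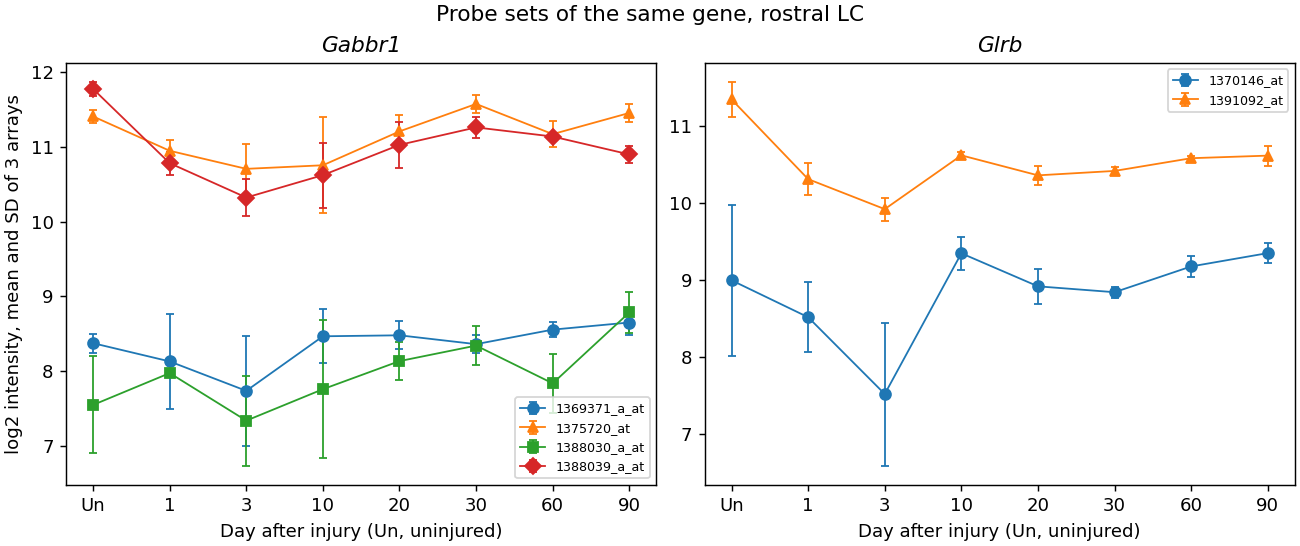
Mean and SD (n = 3) of the log2 level of each tested probe set of Gabbr1 and Glrb in rostral LC cord by day, with uninjured cord. On days 60 and 90 the probe sets of Gabbr1 part, 1 being 0.76 below and 1 being 0.76 above uninjured cord, the latter 0.39 without uninjured replicate 2.

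Genes that act with the receptors were taken from lists of transmitter synthesis and transport (20 tested) and of receptor scaffolds and auxiliary subunits (31 tested). Of the first, 11 were lower and 3 higher rostrally on days 1 and 3, and 15 were lower and 3 higher at the lesion on days 60 and 90. Of the second, 21 were lower and 3 higher, and 23 lower and 4 higher. Of all tested genes, 31.8% were lower in the early rostral comparison and 35% in the late lesion one. The shares of all genes in the other direction are not given here. Slc12a5, the chloride exporter that makes GABA and glycine inhibitory, fell by 1.46 rostrally on days 1 and 3 and by 0.98 on days 60 and 90, and by 5.06 at the lesion. Slc32a1, the vesicular transporter of both inhibitory transmitters, fell by 1.64, 1.18 and 5.21 in the same comparisons. Gad1, which makes GABA, fell by 1.08, 0.76 and 6.26. Gphn, the scaffold gephyrin, fell by 0.62, 0.27 and 1.36. Dlg4, the scaffold PSD-95, fell by 0.76, 0.61 and 1.65. With NT3 against LC at the lesion on days 60 and 90, 8 genes of the first list were higher and 3 lower, and 12 of the second were higher and 3 lower. Of all tested genes, 14.9% were higher in that comparison, and the share lower is not given here. Gad1 was 2.16 higher (limma adjusted p = 3.0e-05) and Slc12a5 1.30 higher (adjusted p = 0.0020).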

How the data were processed

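RNA of bulk cord tissue was hybridised to Affymetrix rat arrays. Images were read with GCOS and values computed by RMA in Affymetrix Expression Console, per the submitters' processing notes. Versions, and which arrays were normalised together, are not given in the sources used here. The values deposited by the authors are on a log2 scale, cover 31099 probe sets, and were taken without further normalisation.

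Groups were taken from the deposited labels. A model of group means was fitted by limma (version 3.58.1, under R 4.3.3), with 1 fit for each segment with the uninjured cords, and a joint fit for comparisons between segments. Moderated tests were two-sided, with Benjamini-Hochberg adjustment over 12041 genes and a threshold of 0.05. Windows and arms were contrasts of group means, weighting days equally. Members and gene lists were chosen with earlier results of these data known. All members are accounted for, and full values were given to the called members with the largest changes and to a set list of subunits. Alternatives were no filter, the 60th percentile, quantile or 75th percentile scaling, the mean of probe sets, 1 fit of all arrays, a replicate block, a beta-actin covariate, and leaving out arrays or days. The fit was tested on simulated data: for rostral LC on days 1 and 3, 17 of 67 genes changed by 0.3 were recovered, 60 of 67 changed by 0.6 and 66 of 66 changed by 1.2. Replicate numbers were not taken to pair the samples: deviations from the group means of same-numbered arrays correlated by 0.002 (caudal), -0.007 (lesion) and 0.014 (rostral) on average. Across segments of the same arm and day the averages were 0.086 (caudal and rostral), 0.067 (lesion and rostral) and 0.030 (caudal and lesion), against -0.043, -0.031 and -0.015 for unlike numbers. Same-numbered samples of different segments may thus be related. Comparisons between segments treated all arrays as independent, and a fit paired by number within arm and day was not run.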

Additional observations from a re-analysis of the deposited data

Results flagged for a closer look

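The NT3 minus LC difference varied with the day by the moderated F-test of limma for 14 of 29 members rostrally, 1 caudally and 13 at the lesion site. Chance was not assessed beyond the adjusted p over all genes. The rostral, caudal and lesion counts are to be read against 28.2%, 7.18% and 50.6% of all genes. The caudal and lesion counts lie below those shares.

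LC tissue lay further below uninjured cord at the lesion site than in neighbouring cord for 26 of 29 members, by the test of that difference. Of all tested genes, 38% were called lower in that test.

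A probe set of Gabbr1 that was not the one used, the fourth brightest, was 0.76 higher in rostral LC cord than in uninjured cord on days 60 and 90 (SE 0.28, limma adjusted p = 0.021). Without uninjured replicate 2 it was 0.39 (adjusted p = 0.33), a check chosen after seeing the data.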

How the results depend on the processing

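The counts of receptor genes called in either direction between LC and uninjured cord stayed within 1.5 times under all alternatives except the filter at the 60th percentile. That filter left 18 members and gave 16 and 14 rostrally on days 10 to 30 and 60 to 90, 15 and 17 caudally on days 1 to 3 and 10 to 30, 17 at the lesion on days 10 to 30 and 17 for lesion against neighbouring cord. It also gave 1 for NT3 against LC on either flank, and 10 rostrally, 11 caudally and 14 at the lesion relative to neuron markers.

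Without a filter, 17 members differed between days in lesion LC, 2 in the caudal NT3 minus LC test by day, and 33, 33 and 40 relative to neuron markers. In 1 fit of all arrays, lesion LC by day gave 17, the NT3 minus LC test by day 7 (rostral), 0 (caudal) and 20 (lesion), and the rostral count relative to neuron markers 6. The mean of probe sets gave 8 for rostral ET against LC, 0 for the caudal test by day and 10 for the rostral count relative to neuron markers. Quantile scaling, 75th percentile scaling and leaving out 3 arrays together each gave 2 for the caudal test by day. The beta-actin covariate gave 9 caudally relative to neuron markers. On days with RT1-CE10 on the same side of 9 in both arms, NT3 against LC gave 0 (rostral), 0 (caudal) and 3 (lesion), NT3 against ET 12 (rostral) and 1 (caudal), and ET against LC 2 and 2. Day 60 alone gave 4 for NT3 against LC at the lesion. The cause was not tested.

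Leaving out 1 array at a time gave 2 to 6 for rostral NT3 against LC, 1 to 7 caudally, 9 to 17 for the rostral test by day (9 without NT3 day 1 replicate 2), 0 to 4 for the caudal one, and 0 to 1 for caudal NT3 against ET and ET against LC. Of 8397 gene values so recomputed, 8107 kept direction and call, 290 lost the call and 0 reversed.

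With the mean of probe sets, values relative to neuron markers reversed for Gabbr2 (0.15 rostral, 0.17 caudal), Glra2 (0.21 rostral, 0.86 lesion) and Gabrb2 (0.89 lesion). With the beta-actin covariate Gabrg1 reversed on days 10 to 30 (-0.31 rostral, -0.55 caudal), as did, caudally relative to neuron markers, Grin1 (0.034), Grin3a (-0.021) and Grm5 (-0.24). Against uninjured cord that covariate moved 32 of 244 called values by over 1.5 times, and the mean of probe sets 43 of 215. The replicate block gave 24 members for rostral LC on days 1 and 3 and 12, against 9, for lesion NT3 against LC over the days. The 16 untested members were dim on nearly all arrays, so their levels were not assessed.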
